A study of Mus musculus with 26 samples.

Results

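The untreated HCmel3 melanomas are 13 of the 26 samples of the series, and they are described here on their own, with no treated sample. They were chosen by their titles: 8 are titled as non-treated (NT) and 5 as HCmel3 controls (ctrl), and the labels give the same untreated state for both. HCmel3 is a transplantable mouse melanoma. All 13 tumours came from the strain C57BL6, and were excised, described in the labels as tumour skin, and frozen in liquid nitrogen. The ctrl titles add that the samples were re-analyzed, without saying what was repeated, and no label excludes that a tumour is in both sets. After centring each gene in its own set, the profiles of the 40 pairs of an NT and a ctrl tumour had r between -0.316 and 0.309 over the genes measured in both. The labels give no age, sex, tumour size or day of excision, and none states that the samples of a set came from separate animals, so the spread and the p-values below are those between samples and may be partly technical. Each sample, called a tumour below, filled 1 array of the type Illumina MouseWG-6 v2.0, a bead array that reads each transcript through a fixed probe. The sets were deposited in 2 tables and normalized apart, so that only ranks and spreads, never levels, are set side by side between them.

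A transplanted tumour piece holds the melanoma cells, the vessels, connective tissue and leukocytes that grew into it, and any skin, muscle or fat that was cut out with it. Melanoma cells that keep the melanocyte programme make melanosomes, the organelles of pigment, through structural proteins such as Pmel and enzymes such as Tyr, Tyrp1 and Dct, under the transcription factor Mitf. In bulk RNA, fewer cells of a type and less RNA per cell cannot be told apart, which holds for every gene group below.

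A gene counted as measured if 2 or more arrays of the set detected its probe at a p under 0.01, which left 9640 genes in NT and 9807 in ctrl, 9079 of them in both. Signals are normalized log2 signals. Where the probe of a measured gene was not detected on an array, the signal had a median of 4.99 in NT and 4.79 in ctrl, and 95% of such values lay below 5.46 in NT and 5.28 in ctrl. NT arrays detected 14064 to 16312 probes and ctrl arrays 14545 to 17033, and the most probes in NT were found in replicate 6. The correlation r of a pair of tumours across genes ran from 0.926 to 0.983 among NT tumours, and from 0.939 to 0.967 among ctrl tumours. Per the array names in the labels, NT replicates 1 to 3 were on slide 1, replicates 4 and 5 on slide 4, and replicates 6 to 8 on slide 5, while ctrl replicates 1 to 3 were on slide 6 and replicates 4 and 5 on slide 7. The 95th percentile of the raw log2 signal was 9.68 to 10.1 on slide 1 and 10.6 to 10.9 on slides 4 and 5, so slide 1 was dimmer before normalization.

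Genes of the translation machinery and of the melanosome were among the brightest of both sets. Of the 100 brightest genes of each set, 74 were the same, which is 0.815% of the genes measured in both. They included 22 with the symbol of a cytosolic ribosomal protein, 3 that are encoded by mitochondrial DNA, 5 of the 23 melanocyte list genes and 44 of other kinds. Among the 44 were the beta globin genes Hbb-bs (ranks 33 in NT and 74 in ctrl) and Hbb-bt (74 and 87), whose SDs of 0.83 and 0.68 in NT and 0.99 each in ctrl were above the medians of all genes. In NT the ribosomal protein genes Rps2, Rpl41, Rps29 and Rplp1 ranked 1 to 4, at mean signals of 14.76 to 14.79. In ctrl Rplp1 ranked first at 15.22, ahead of Dbi, which encodes an acyl-CoA binding protein, at 15.21 and Rpl41 at 15.18. Ribosomal protein genes have many near-identical pseudogene copies, so their probes may not be specific to 1 gene. The metallothionein gene Mt1 ranked 5 in NT and 4 in ctrl, and Eef1a1, the translation elongation factor, 6 and 5. Mif, a cytokine, and Fth1, the heavy chain of the iron store ferritin, were also among the 15 brightest of both sets. A rank orders bead signals and not transcript numbers, since probes differ in their own brightness.

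Several melanosome genes were bright in every tumour. Pmel, which forms the fibrils on which pigment is laid down, ranked 8 of 9640 in NT at 14.69 ± 0.17 (SD, n = 8) and 7 of 9807 in ctrl at 15.08 ± 0.11 (SD, n = 5). Its lowest, median and highest NT signals were 14.44, 14.68 and 14.98, and its ctrl signals were 15.08, 15.19, 15.19, 15.05 and 14.91. No tumour stood apart for Pmel. Gpnmb, a melanosomal glycoprotein also made by macrophages, ranked 12 and 14, Dct, the dopachrome tautomerase, 18 and 11, Mlana, a melanosomal membrane protein, 21 and 49, and Tyrp1, a pigment enzyme, 35 and 20. These 5 were the members of the melanocyte list among the brightest 100 of both sets.

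Most of these genes varied little, with Mlana in ctrl, at an SD of 0.52, as an exception. The SD over tumours was 0.15 in NT and 0.05 in ctrl for Gpnmb, and 0.14 and 0.17 for Tyrp1, against medians over all genes of 0.366 in NT and 0.378 in ctrl. Among genes that ranked in the brightest 1000 of both sets, 800 in all, those with the smallest higher SD of the sets were Rplp1 (0.09 in NT and 0.06 in ctrl), Rps2 (0.10 in both), Uqcc2 (0.10 and 0.07), an assembly factor of the respiratory chain, Mt1 (0.08 and 0.11) and Rpl32 (0.07 and 0.11). Signals near 15 sit at the top of the scale of each array, where bead arrays are known to compress differences, so a low SD there bounds the change in signal rather than in RNA.

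**Figure D1:**
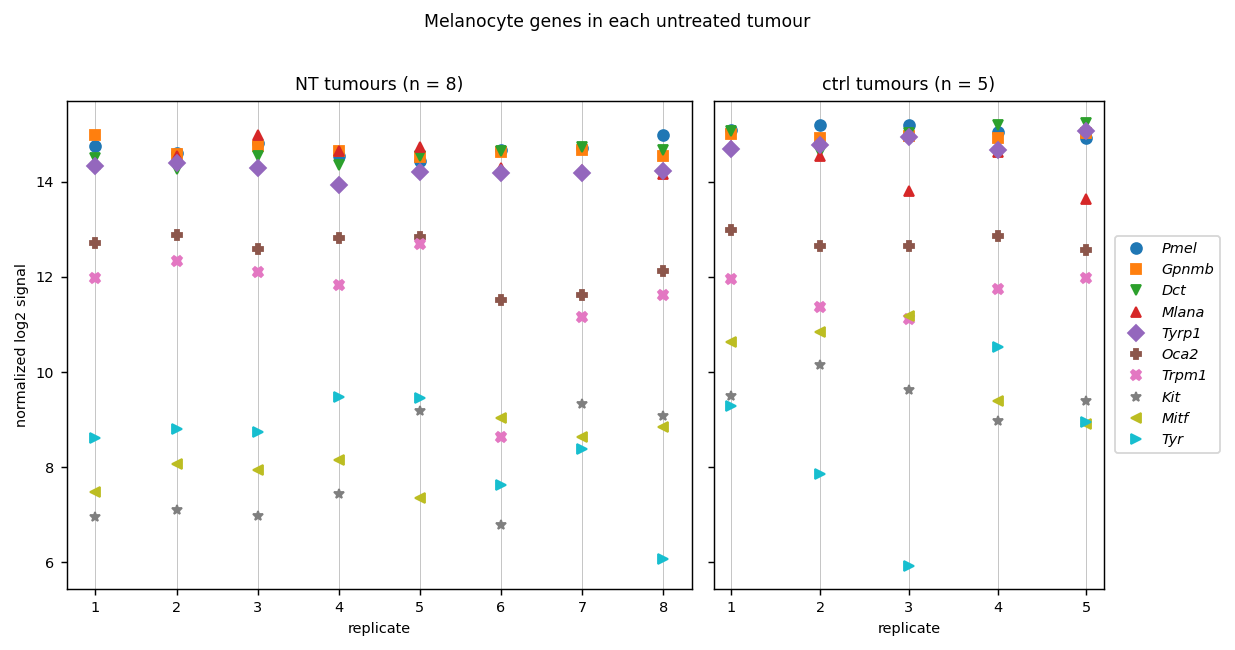
Normalized log2 signal (vertical axis) of 10 melanocyte genes in each NT tumour (left) and each ctrl tumour (right), by replicate number. Pmel, Gpnmb, Dct, Mlana and Tyrp1 lie between 13.63 and 15.24 in every tumour, while Tyr drops to 6.08 in NT replicate 8 and 5.92 in ctrl replicate 3, and Trpm1 to 8.62 in NT replicate 6.

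Within the melanocyte list the spread sat in other members. The list has 23 measured genes in each set, and 22 or 23 of the 24 with a probe were detected in each NT tumour, and 22 to 24 in each ctrl tumour. Its median member SD was 0.453 in NT and 0.377 in ctrl. The members in the most variable 5% of genes were 3 of 23 in NT (Trpm1, Kit and Tyr) and 2 of 23 in ctrl (Tyr and Mitf), against 5% of all genes in each set. That threshold was an SD of 0.859 in NT and 0.873 in ctrl. Tyr, the rate-limiting enzyme of pigment synthesis, was the only list member past it in both sets.

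Tyr had 6.08 in NT replicate 8, 7.62 in replicate 6 and 8.38 to 9.47 in the other 6 NT tumours. The ctrl signals were 9.29, 7.86, 5.92, 10.53 and 8.96 in replicates 1 to 5. NT replicate 8 and ctrl replicate 3 were thus the lowest of their sets. Tyrp1, by contrast, covered 13.94 to 14.40 in NT and 14.66 to 15.06 in ctrl, and NT replicate 8 had 14.23 and ctrl replicate 3 had 14.94, inside the range of the others. Trpm1, a cation channel of melanocytes, had 8.62 in NT replicate 6 against 11.16 to 12.70 in the other 7 NT tumours, and 11.11 to 11.97 in ctrl. Kit, the stem cell factor receptor, had 9.18, 9.32 and 9.08 in NT replicates 5, 7 and 8 and 6.78 to 7.43 in the other 5. Its ctrl signals covered 8.97 to 10.15. Mitf, the master regulator of the lineage, had 7.36 to 9.04 in NT, and 10.63, 10.85 and 11.17 on ctrl slide 6 against 9.39 and 8.91 on slide 7.

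The promoters of Tyr, Tyrp1, Dct and Trpm1 are shown because 2 of these genes varied and 2 did not while all hold the letters CATGTG, an E-box that MITF is known to bind. The sequences are the 150 bases upstream of the start, from RefSeq on GRCm38.p6, 5′ to 3′ on the gene's strand, with the motif in capitals.
Tyr promoter (chr7:87493513-87493662, minus strand): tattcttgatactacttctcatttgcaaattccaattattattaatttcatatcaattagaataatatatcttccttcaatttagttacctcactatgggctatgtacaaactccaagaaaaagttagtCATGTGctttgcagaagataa
Tyrp1 promoter (chr4:80834063-80834212, plus strand): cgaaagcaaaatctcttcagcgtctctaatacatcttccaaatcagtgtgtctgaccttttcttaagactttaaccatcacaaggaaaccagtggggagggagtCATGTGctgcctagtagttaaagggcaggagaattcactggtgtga
Dct promoter (chr14:118052247-118052396, minus strand): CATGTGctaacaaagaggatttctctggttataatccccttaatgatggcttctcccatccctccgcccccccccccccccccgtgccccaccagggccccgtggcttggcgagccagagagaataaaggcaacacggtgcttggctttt
Trpm1 promoter (chr7:64153685-64153834, plus strand): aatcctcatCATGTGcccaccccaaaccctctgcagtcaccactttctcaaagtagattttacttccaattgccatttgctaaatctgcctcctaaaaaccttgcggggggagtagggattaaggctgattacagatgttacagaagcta
The motif was searched on both strands over 250 bases upstream. It was present for 7 of the 16 melanocyte list members with a RefSeq promoter (43.75%), a gene counting if any of its promoters matched. Counted likewise it was present for 13.85% of all 27025 genes, and it was in 12.25% of all 32851 promoters of the same length. The match nearest the start begins 21 bases before it in Tyr, 46 in Tyrp1, 141 in Trpm1 and 150 in Dct. A match is a match of letters, and no binding was measured.

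The spread over tumours was led by genes of other tissues. The highest SD of NT belonged to Krt14, a keratin of the basal epidermis, at 3.98, followed by Krt10 at 3.25, Krt17 and Acta1, the actin of skeletal muscle, at 3.16, Krt16 at 3.15 and Stfa1 at 3.11. In ctrl the order was Acta1 at 3.52, Stfa1 at 3.49, Rhox5 at 3.35 and Krt14 at 3.25. The most variable 5% held 482 genes in NT and 490 in ctrl. In the lists, which cover 28 cell types, tissues and states, 103 of the NT genes and 93 of the ctrl genes were named, so most of the variable genes belonged to none. Of the lists with at least 3 measured members, 6 of 27 in NT had a level with an SD over 1 (keratinocyte, hair follicle, skeletal muscle, adipocyte, erythroid and neutrophil). In ctrl 5 of 25 did (keratinocyte, skeletal muscle, fibroblast, erythroid and sex-linked), so keratinocyte, muscle and erythroid genes were wide in both. Several of these rested on 1 tumour. Without the tumour farthest from the set mean, the NT SD was 0.69 for adipocyte and 0.77 for neutrophil genes. In ctrl it was 0.731 for fibroblast and 0.918 for erythroid genes. The sex-linked SD in ctrl was 1.33, and 0.831 without replicate 5. Without background correction, the lists with an SD over 1 were 2 in NT and 1 in ctrl.

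Among the 9079 genes measured in both sets, 454 made up the most variable 5% of each, and 202 were in both, which is 44.5% of each list. Of these shared genes 56 were in a list and 146 in none. The shared genes were 2.22% of all genes measured in both. The skeletal muscle list gave 18 of its 22 genes measured in both sets, the keratinocyte list 11 of 16 and the erythroid list 4 of 4. The interferon list gave 3 of 19, and the fibroblast and macrophage lists 2 each, of 18 and 20. Melanocyte differentiation gave 1 of 23. Across genes, the SDs of the sets had a Spearman rho of 0.377 and the means a rho of 0.928, over 9079 genes that are not independent of each other. The difference in spread of a gene or list between the sets was not tested.

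**Figure D2:**
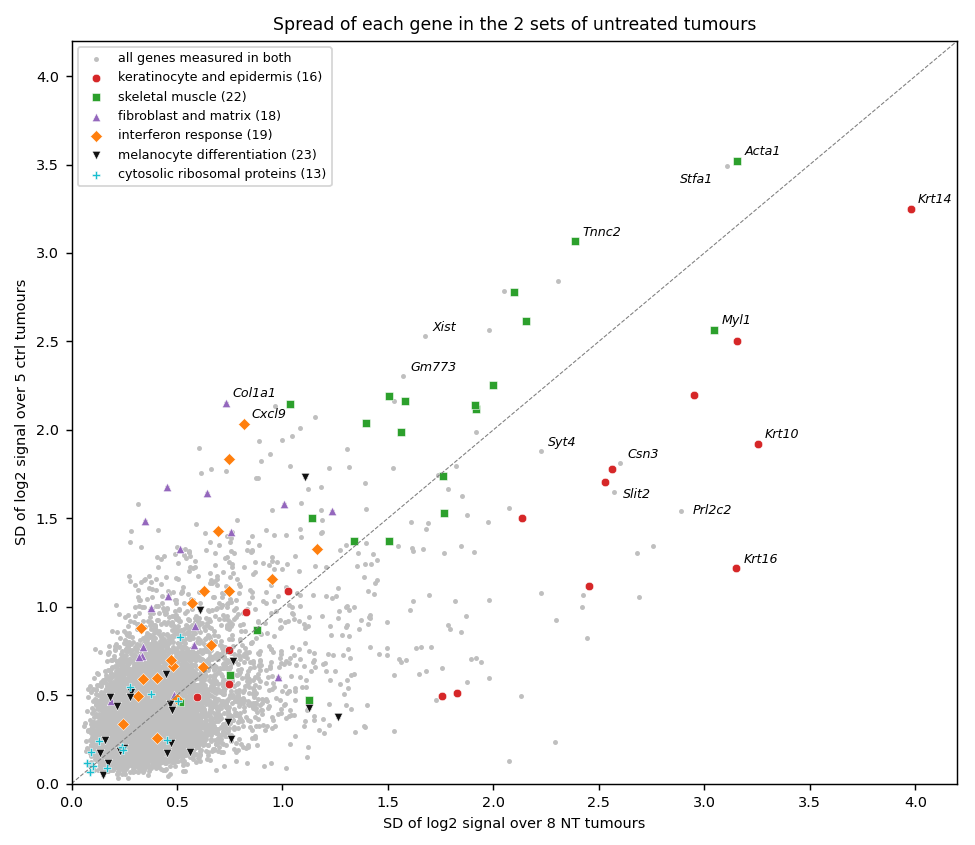
SD of the normalized log2 signal over the 8 NT tumours (horizontal axis) and the 5 ctrl tumours (vertical axis) for the 9079 genes measured in both, with 6 gene lists coloured and the dashed line marking equal SD. Krt14, Acta1, Stfa1 and Myl1 lie far out on both axes, Col1a1 (0.73 in NT and 2.15 in ctrl) and Cxcl9 (0.82 and 2.04) lie above the line, and the ribosomal and most melanocyte genes sit near the origin.

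Epidermal genes were either bright or at background. Krt14 had 12.68, 13.30 and 11.98 in NT replicates 1, 4 and 5, 7.68 in replicate 7, and 4.45 to 4.88 in the other 4. In ctrl it had 11.43, 10.65 and 11.08 in replicates 2, 3 and 4, against 5.28 and 5.0 in replicates 1 and 5. The tumours thus fell into bright and dim ones in both sets, with NT replicate 7 between. Krt10, a keratin of the differentiated layers, had 11.27, 11.81 and 10.30 in the same 3 NT tumours and 4.57 to 6.53 in the other 5. Lor, the cornified envelope protein loricrin, had 10.42, 11.45 and 9.51 there against 4.36 to 6.31. Of the 28 keratinocyte list genes with a probe, 21 or 22 were detected in each of NT replicates 1, 4 and 5, 13 in replicate 7 and 1 to 3 in the rest. In ctrl 16 or 17 were detected in replicates 2, 3 and 4, and 5 and 4 in replicates 1 and 5. The SD of the list level, the mean log2 signal of the measured members, was 1.83 in NT and 1.17 in ctrl, and 15 of 22 members in NT and 13 of 18 in ctrl were in the most variable 5%.

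Hair follicle genes formed a pattern of their own. Krt27, an inner root sheath keratin, had 11.78 in NT replicate 5, 10.32 in replicate 7, 7.24 in replicate 4 and 4.34 to 4.85 in the other 5. Krt34, a hair shaft keratin, had 11.40, 9.52 and 6.95 in the same order of tumours and 4.39 to 4.79 in the rest, and Krt71 followed with 11.17, 9.25 and 6.25. NT replicate 1, among the brightest for Krt14, was at background for all 3. In the list, 14, 13 and 12 of 22 genes were detected in NT replicates 5, 7 and 4, 4 in replicate 1 and 1 in each of the others. In ctrl, Krt27, Krt34 and Krt71 were not measured, and 12 list genes were detected in replicate 2 against 1 to 3 in the others. The SD of the NT list level was 1.69, and 1.12 without replicate 5. In ctrl only 4 members were measured, with an SD of 0.366, and 0.151 without replicate 2.

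In NT, muscle genes were brightest in tumours other than those brightest for Krt14. In ctrl they were brightest in replicates 4 and 2, which were also bright for Krt14. Acta1 had 12.70 in NT replicate 7, 11.93, 11.56 and 10.87 in replicates 3, 2 and 1, 9.22 and 9.60 in replicates 4 and 5, and 4.68 and 4.57 in replicates 6 and 8. In ctrl it had 12.74 in replicate 4 and 11.44 in replicate 2, against 6.78, 4.36 and 6.80 in replicates 1, 3 and 5. Myl1, a fast myosin light chain, gave the same order at both ends, with 12.69 in NT replicate 7 and 4.52 in replicate 8, and 13.16 in ctrl replicate 4 and 7.20 in replicate 3. The fast troponin gene Tnnc2 had SDs of 2.39 and 3.07, and Pvalb, a calcium buffer of fast fibres, 2.10 and 2.78. Of 29 muscle genes, 25 were detected in NT replicates 3 and 7 and in ctrl replicate 4, and as few as 6 in NT replicate 8 and 7 in ctrl replicate 3. The list level had an SD of 1.43 in NT and 1.69 in ctrl, the ctrl value falling to 1.06 without replicate 4. In the most variable 5% were 22 of 25 measured members in NT and 19 of 23 in ctrl.

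Some fat genes were concentrated in 1 NT tumour. Adipoq, the fat hormone adiponectin, had 10.27 in replicate 7 and 4.47 to 6.20 in the other 7. Car3, a carbonic anhydrase abundant in fat and muscle, had 10.18 there and 4.30 to 6.65 in the others. Plin4, a lipid droplet coat protein, instead had 8.71 in replicate 7 and 7.88 to 8.46 in replicates 1, 2, 3 and 5, against 4.36 to 4.68 in replicates 4, 6 and 8. Pparg, another list member, had an SD of 1.32 in NT and fell in the group led by Zfhx3 when genes were grouped by profile (below). The mean of that group was 1.12 above the set mean in replicate 1 and 0.03 above it in replicate 7. NT replicate 7 detected 11 of the 16 fat genes with a probe and the other NT tumours 3 to 6. The SD of the list level was 1.12, and 0.69 without that tumour. In ctrl, where Adipoq was not measured, it was 0.52, and 0.266 without replicate 4.

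**Figure D3:**
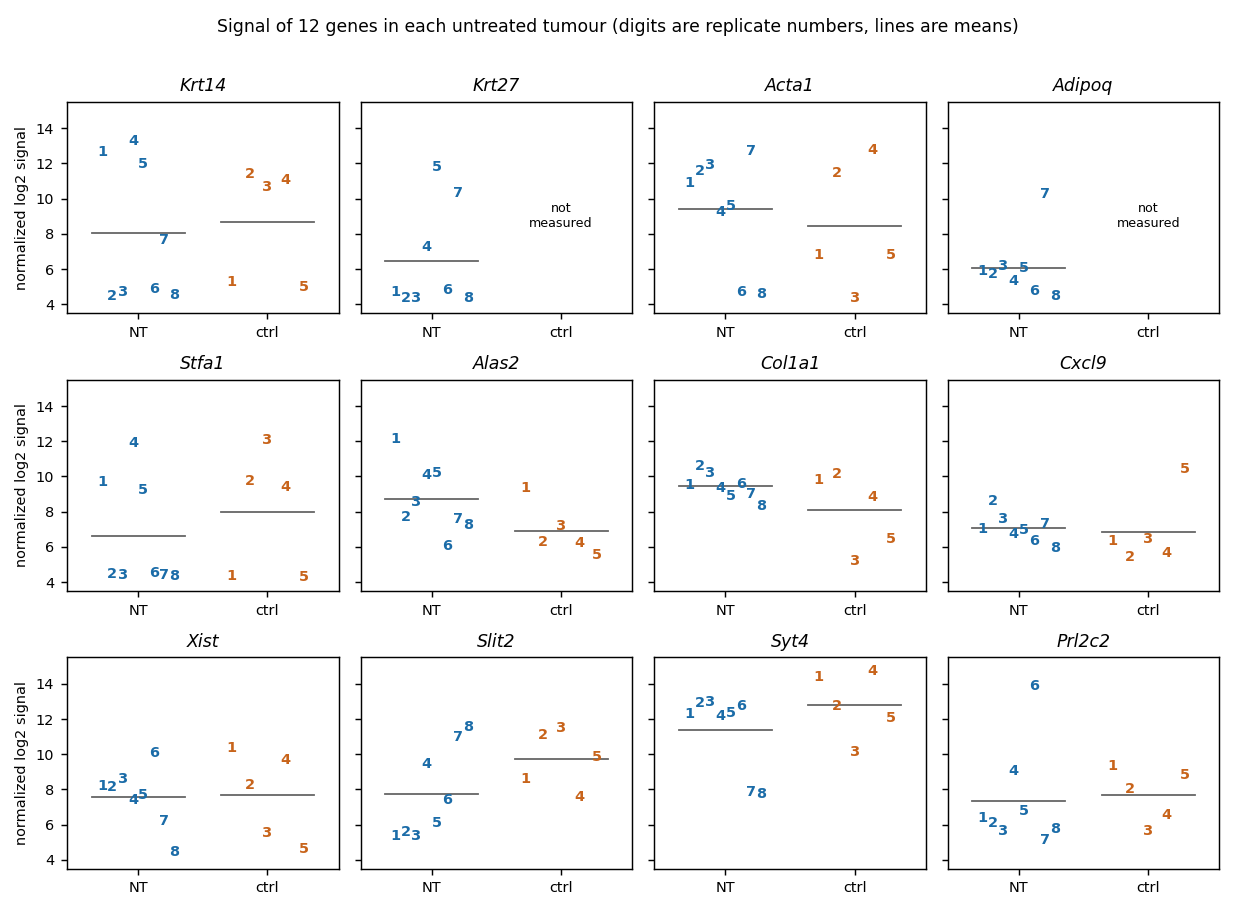
Normalized log2 signal (vertical axis) of 12 genes in each NT tumour and each ctrl tumour, each digit being the replicate number and each line the mean of the set. Krt14 and Stfa1 pick out NT replicates 1, 4 and 5 and ctrl replicates 2, 3 and 4. Acta1 is highest in NT replicate 7 and ctrl replicate 4, with other tumours of each set also bright, and Syt4 is low in NT replicates 7 and 8.

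Red cell genes separated NT replicate 1. Alas2, the erythroid enzyme of haem synthesis, had 12.11 in replicate 1, 10.11 and 10.20 in replicates 4 and 5 and 6.05 to 8.58 in the others. Among ctrl tumours it had 9.35 in replicate 1 and 5.56 to 7.17 in replicates 2 to 5. Slc4a1, the anion exchanger of the red cell membrane, had 11.50 in NT replicate 1, and 4.45 to 8.70 in the other 7. The alpha globin gene Hba-a1 was bright throughout, from 12.01 in NT replicate 6 to 14.61 in NT replicate 3, and in ctrl from 11.69 in replicate 5 to 14.64 in replicate 1. All measured erythroid members, 5 in NT and 4 in ctrl, were in the most variable 5%.

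Of the leukocyte lists with at least 3 measured members, only the neutrophil list had a level with an SD over 1, and only in NT. Its level had an SD of 1.11 in NT, or 0.77 without replicate 4, and 0.61 in ctrl. Its widest member, Stfa1, a cysteine protease inhibitor of the stefin A family, had 9.69, 11.88 and 9.25 in NT replicates 1, 4 and 5 and 4.37 to 4.54 in the other 5. In ctrl it had 9.77, 12.08 and 9.38 in replicates 2, 3 and 4 and 4.34 and 4.30 in replicates 1 and 5. These are the tumours in which Krt14 was bright, in both sets. S100a8, a calcium-binding protein of neutrophils and of stressed epidermis, had 11.65 in NT replicate 4, 9.49 in replicate 1 and 5.24 to 8.82 in the others, but covered only 8.48 to 8.83 in ctrl. The list member S100a9 had SDs of 1.87 in NT and 0.945 in ctrl, and was in the most variable 5% of both sets. Clec4d, a myeloid lectin and the brightest list member in NT, had 8.60, 8.27 and 9.23 in NT replicates 1, 4 and 5, inside the range of 7.01 to 9.0 of the others but for replicate 5. The stefin A genes are close copies whose probes may share transcripts. The part of epidermis in the neutrophil list was not tested.

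Macrophage genes were detected in all tumours. Of 23 with a probe, 18 to 20 were detected in each NT and each ctrl tumour, and the list level had an SD of 0.372 in NT and 0.487 in ctrl, or 0.271 in ctrl without replicate 2. Lyz2, the myeloid lysozyme, had a lowest, median and highest NT signal of 10.36, 11.19 and 12.31, and ctrl signals of 9.82, 12.12, 10.75, 12.29 and 11.49. Apoe, the brightest member, had SDs of 0.50 and 0.33.

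Few T cell genes were detected. Of 14 with a probe, 2 to 4 were detected in each NT tumour and 3 to 5 in each ctrl tumour, and Cd3d and Cd3g, chains of the T cell receptor complex, were measured in neither set. Cd3e had 4.39 to 6.03 in NT. Other members were brighter: Thy1, a surface protein that connective tissue and nerve cells also make, had 8.97 to 10.19 in NT and 8.19 to 10.47 in ctrl. Il7r, the interleukin 7 receptor, had a lowest, median and highest NT signal of 5.28, 7.16 and 8.53, and ctrl signals of 7.63, 6.44, 5.02, 7.94 and 5.89, and was in the most variable 5% of both sets. Cd8b1 was bright, at 9.34 to 10.12 in NT and 9.58 to 10.46 in ctrl. Of the receptor complex, Cd3e was measured in NT alone and Cd247, another chain, in ctrl alone. Ccl5, a chemokine of cytotoxic cells, had a lowest, median and highest NT signal of 7.33, 8.89 and 9.53, and ctrl signals of 6.88, 5.99, 7.19, 6.27 and 8.59. Prf1, the pore protein perforin, had 11.28 in ctrl replicate 4 and 8.24 to 9.31 in the other 4.

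The MHC class II genes, which present antigen to CD4 T cells, were wider in NT, where NT replicate 8 was the lowest tumour. Cd74, the invariant chain, had 8.47 in NT replicate 8 and 10.07 to 12.03 in the other 7. H2-Eb1 had 6.68 there and 8.10 to 10.28 in the others, and H2-Aa 6.73 against 8.20 to 10.25. In ctrl, H2-Eb1 had 6.20, 7.09, 6.41, 7.05 and 8.07, so replicate 5 was the highest. The list level had an SD of 0.711 in NT and 0.401 in ctrl, and 5 of 8 members in NT and 2 of 8 in ctrl were in the most variable 5%. Both counts include Ctss, which is also in the macrophage list. All 8 members were detected in every tumour.

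Interferon response genes were wide in ctrl, where replicate 5 was the highest tumour. Cxcl9, a chemokine induced by interferon gamma, had 10.41 in ctrl replicate 5 against 6.36, 5.42, 6.45 and 5.65 in replicates 1 to 4, and in NT a lowest, median and highest signal of 5.92, 7.01 and 8.61. Usp18, the protease that removes ISG15 from proteins, had 10.29 in ctrl replicate 5, 8.97 in replicate 3 and 6.05 to 7.31 in the others. Isg15 itself, a ubiquitin-like protein, had 9.62 and 8.95 in those tumours and 6.35 to 7.52 in the others, and 6.02 to 8.25 in NT. The GTPase genes Gbp3 and Igtp had 8.77 and 8.10 in ctrl replicate 5, against 6.0 to 7.62 for Gbp3 and 5.28 to 6.61 for Igtp in the other 4. Not every member followed: Irgm1, the brightest, had 12.61 in replicate 5 and 12.23 to 12.91 in the others. In ctrl 10 of 20 measured members were in the most variable 5%, and 2 of 19 in NT. The list level had an SD of 0.717 in ctrl, 0.415 without replicate 5, and 0.259 in NT.

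The promoters of Isg15, Gbp3 and Igtp are shown because these genes were all brightest in ctrl replicate 5 and hold a pair of GAAA letters on 1 strand with 2 bases of any kind between, the core of the element that interferon-activated factors are known to bind. They are the 150 bases upstream of the start, from RefSeq on GRCm38.p6, with the motif in capitals on either strand, overlapping matches run together.
Isg15 promoter (chr4:156200819-156200968, minus strand): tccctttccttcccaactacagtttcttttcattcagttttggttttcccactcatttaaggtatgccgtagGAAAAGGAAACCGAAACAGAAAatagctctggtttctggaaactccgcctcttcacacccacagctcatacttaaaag
Gbp3 promoter (chr3:142559894-142560043, plus strand): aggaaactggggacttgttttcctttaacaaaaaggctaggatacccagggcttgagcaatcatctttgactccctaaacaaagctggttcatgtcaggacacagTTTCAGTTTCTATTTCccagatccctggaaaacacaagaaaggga
Igtp promoter (chr11:58199406-58199555, plus strand): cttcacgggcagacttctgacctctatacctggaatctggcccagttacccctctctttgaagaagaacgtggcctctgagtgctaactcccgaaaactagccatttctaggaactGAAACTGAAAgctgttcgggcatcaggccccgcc
Over 250 bases upstream the motif was present for 10 of the 17 interferon list members with a promoter (58.82%) and, counted likewise, for 3.463% of all 27025 genes. It was in 2.977% of all 32851 promoters. Irgm1, whose signal in ctrl replicate 5 lay within the range of the other 4, holds it as well. The match shows letters alone.

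Connective tissue genes had a median member SD of 1.03 in ctrl and 0.50 in NT. Col1a1, a chain of type I collagen, had 9.79, 10.15, 5.23, 8.81 and 6.45 in ctrl replicates 1 to 5, and 8.33 to 10.62 in NT. Its partner chain Col1a2 had 9.71, 9.30, 5.72, 8.87 and 7.09 in ctrl. Replicates 3 and 5 were the low tumours for both. Loxl1, a matrix cross-linking enzyme, had 6.16 and 7.31 in those tumours and 9.06 to 9.86 in the others, while Sparc, a matrix glycoprotein and the brightest member, covered 13 to 14.08. In ctrl 11 of 18 members were in the most variable 5% and in NT 3 of 18. The list level had an SD of 1.03 in ctrl, or 0.731 without replicate 3, and 0.359 in NT. Pecam1, an adhesion protein of endothelial cells, had 7.65 in ctrl replicate 2 and 5.66 to 6.33 in the others, and the endothelial list level had an SD of 0.459 in ctrl and 0.222 in NT.

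**Figure D4:**
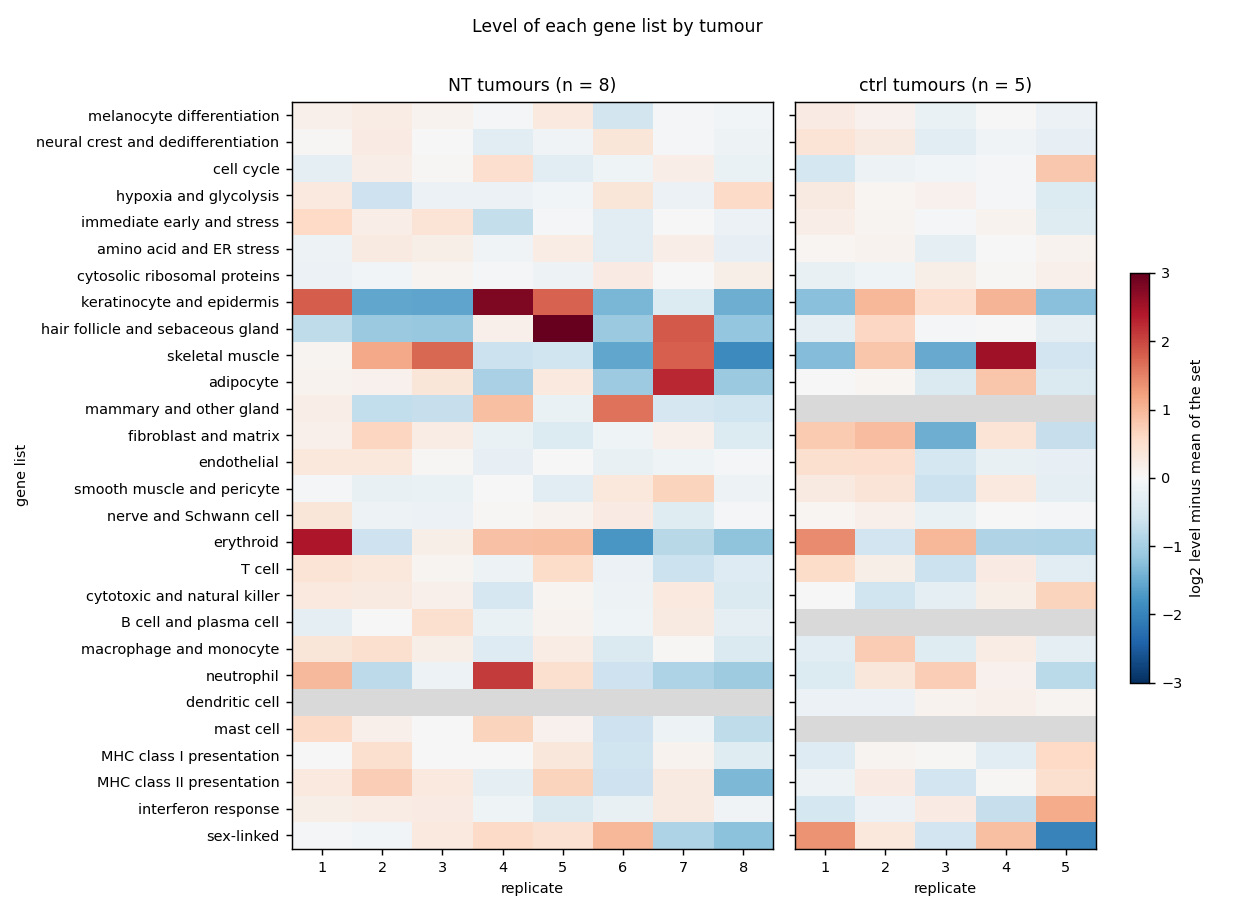
Level of each of the 28 gene lists (rows) in each tumour (columns, by replicate number), as the mean log2 signal of the measured members minus the mean of the set; grey marks lists with under 3 measured members. The strongest colours belong to keratinocyte, hair follicle, muscle, fat, red cell and neutrophil lists, and ctrl replicate 5 is high for interferon response and cell cycle.

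Of the lists for tumour state, none had a level with an SD over 1 in either set. The widest in NT was immediate early and stress genes, at 0.414 in NT and 0.221 in ctrl (0.0968 in ctrl without replicate 5), with 6 of 20 members in the most variable 5% of NT and 2 of 19 in ctrl. This level was highest in NT replicates 1 to 3, the arrays of slide 1, at 0.60, 0.20 and 0.41 above the set mean. Replicates 4 to 8 had -0.71 to 0.02, and slide and tumour cannot be told apart. Hspa1a, an inducible heat shock protein, had 10.77 in NT replicate 1 and 5.03 to 8.18 in the other 7, and in ctrl 7.45, 7.71, 6.36, 6.86 and 5.46. The cell cycle list had an SD of 0.285 in NT and 0.489 in ctrl, and the ctrl value was 0.219 without replicate 5. Tyms, the thymidylate synthase, had 10.50 in ctrl replicate 5 and 7.67 to 9.48 in the others, and Ccna2, a cyclin of S phase and mitosis, 6.31 against 4.28 to 5.31. The ribosomal protein list had an SD of 0.151 in NT and 0.174 in ctrl. In the hypoxia list, Car9, a carbonic anhydrase induced by low oxygen, had 8.96 and 8.29 in NT replicates 2 and 3, 10.36 in replicate 1, and 10.47 to 12.42 in replicates 4 to 8. Its lowest NT signals were thus those of slide 1, and its ctrl means were 10.98 on slide 6 and 9.11 on slide 7. Slide and tumour cannot be told apart here either. Adm, the peptide hormone adrenomedullin, had SDs of 1.79 and 1.67 and did not follow Car9. Adm had 9.97 and 9.30 in NT replicates 1 and 3 and 6.77 in replicate 8, where Car9 was highest. Both genes were in the most variable 5% of both sets, where 5 of 16 hypoxia members in NT and 2 of 15 in ctrl stood.

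Of the neural crest list, 2 of 13 measured members in NT and 0 of 16 in ctrl were in the most variable 5%. Ngfr, the nerve growth factor receptor, had 7.93 in NT replicate 6 and 4.42 to 5.72 in the other NT tumours. Axl, a receptor tyrosine kinase, had 12.03 in NT replicate 6 and 9.29 in replicate 8, with 11, 10.63, 9.45, 9.24 and 10.96 in ctrl. Ngfr in ctrl covered 4.46 to 5.42.

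Several variable genes that belong to no list split the tumours in ways that none of the tissue lists did. Syt4, a synaptotagmin of vesicle release, had 7.84 and 7.76 in NT replicates 7 and 8, against 12.17 to 12.95 in the other 6, and in ctrl 14.41, 12.72, 10.10, 14.73 and 12.07. Slit2, a secreted guidance ligand, had 10.96 and 11.53 in NT replicates 7 and 8, 9.44 in replicate 4 and 5.37 to 7.39 in the other 5, and in ctrl 8.61, 11.08, 11.49, 7.57 and 9.87. Ctrl replicate 3 was thus the lowest for Syt4 and the highest for Slit2, and ctrl replicate 4 the reverse. Tbx4, a T-box transcription factor of the hindlimb, had 10.01 and 10.47 in NT replicates 7 and 8 against 5.49 to 8.11, and Tox, an HMG-box factor, 8.09 and 8.57 against 4.39 to 4.66.

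NT replicate 6 carried the proliferin genes. Prl2c2, a placental hormone of the prolactin family, had 13.86 in NT replicate 6, 9.06 in replicate 4 and 5.15 to 6.75 in the other 6, and in ctrl 9.34, 8.03, 5.67, 6.53 and 8.80. Prl2c3, a close copy whose probe may share transcripts, had 13.51 in NT replicate 6. Csn3, the milk protein kappa-casein, had 11.87 there, 8.64 in replicate 4 and 4.46 to 6.55 in the others, and in ctrl 10.71, 8.36, 5.86, 9.63 and 8.83. Prkg2, a cGMP-dependent protein kinase, had 11.59 in NT replicate 6 and 6.03 to 8.63 in the others, and Gm773, a predicted gene, 9.12 against 4.32 to 5.94. In ctrl both were highest in replicate 5, Prkg2 at 9.66 against 5.29 to 6.84 and Gm773 at 9.61 against 4.31 to 6.68. This is the NT tumour with low Trpm1.

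Ctrl replicate 5 had signals that no other ctrl tumour showed. Rhox5, an X-linked homeobox gene of the reproductive tract, had 13.09 there and 4.65 to 6.13 in replicates 1 to 4, and it was not measured in NT. Vmn1r123, annotated as a vomeronasal receptor, had 10.30 against 4.31 to 5.10 and was likewise not measured in NT.

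Sex-linked genes varied, and the labels give no sex of host or tumour. Xist, the RNA that silences an X chromosome in female cells, had a highest NT signal of 10.07 in replicate 6, 6.22 in replicate 7, 4.44 in replicate 8 and 7.40 to 8.59 in the other 5. Its ctrl signals were 10.34, 8.27, 5.50, 9.70 and 4.62. The Y-linked Eif2s3y had 6.25, 6.33 and 5.61 in NT replicates 4, 5 and 6 and 4.37 to 4.92 in the others, and in ctrl 7.83, 7.36, 6.63, 7.37 and 4.32. Xist and Eif2s3y were both above 5.46 in NT replicates 4, 5 and 6 and both above 5.28 in ctrl replicates 1 to 4, with Xist only just so in replicate 3. Both lay below those bounds in NT replicate 8 and ctrl replicate 5.

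Ccl21a, a chemokine of lymphatic vessels and lymph nodes, was at background in NT replicates 6 and 8, at 4.44 and 4.45, at 7.59 in replicate 7 and 8.76 to 10.14 in the other 5. NT replicates 6 to 8 were all on slide 5, so slide and tumour cannot be told apart here. In ctrl it had 10.76 and 9.89 in replicates 1 and 4 against 5.15, 4.66 and 5.86. Ccl21c gave the same order in ctrl, but the probes of these near-identical genes may read the same transcripts.

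The 482 most variable NT genes were grouped by their profile over the 8 tumours, which gave 11 groups of at least 16 genes. The groups were formed on these values, so their coherence in NT is a description. The largest held 84 genes, led by Sprr1b, Cnfn and Defb6, with 15 keratinocyte, 5 neutrophil and 4 erythroid list members, high in NT replicates 1, 4 and 5. The next held 77 genes, led by Mup2, Pdlim3 and Igf2, with 20 muscle, 4 fat and 4 MHC class II members, high in NT replicate 7 and low in replicates 6 and 8. A group of 42 genes led by Krtap4-1, 12 of them in the hair follicle list, was high in NT replicates 5 and 7, and only 7 of them were measured in ctrl. Another pair of groups, with no list majority, split NT replicates 7 and 8 from the rest: 45 genes led by Abca4, Tox and Tbx4 were high there, and 16 led by Lgi4, Cpe and Arrb1, Syt4 and Xist among them, were low. Groups of 37 genes led by Pdlim2 and of 16 led by Adssl1 were highest in NT replicate 6. A group of 38 genes led by Myo1f, Cdkn1c and Hba-a1 was low on slide 5. Its mean was -1.83, -0.48 and -0.95 from the set mean in replicates 6 to 8, and 0.44 to 1.14 in the others. It held Ccl21a, Tyr and Trpm1, and also Cort, Gspt2, Enpp6 and Cyp7b1, which limma called between slides (below). Other groups followed slides too. The group led by Fam71f2 and Vegfa had 1.47, 0.46 and 0.98 in replicates 6 to 8 of slide 5, and -0.84 to -0.38 in the others. The group led by Sult5a1 and Cox7a1, with Car9, had -0.97, -1.15 and -1.12 in replicates 1 to 3 of slide 1, and -0.31 to 1.66 in the others. Slide and tumour cannot be told apart in these groups.

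The ctrl tumours did not enter the grouping. The mean pairwise r among members in ctrl was 0.466 for the muscle group, 0.398 for the group of Syt4 and Xist, and 0.318 for the epidermal group. It was 0.229 for the group led by Adssl1, 0.198 for the group of Tox and Tbx4, 0.0612 for the 7 measured genes of the Krtap4-1 group and 0.0406 for the group led by Pdlim2. The groups led by Zfhx3, Sult5a1 and Myo1f had 0.151, 0.138 and 0.129, and the lowest value was -0.0246 for a group of 20 genes led by Fam71f2, Vegfa and Vps13a. Over all genes the mean pairwise r was 0.0011 in ctrl. With 5 tumours these values rest on few points.

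The spread was compared with slide and with bead error. Between the 3 slides of NT, limma called 5 of 9640 genes at an adjusted p under 0.05 (0.0519%), and 1533 had an unadjusted p under 0.05 (15.9%). Cort, a neuropeptide gene, had 6.22 to 6.48 on slide 1, 8.74 and 8.64 on slide 4 and 4.46 to 5.04 on slide 5 (limma adjusted p = 0.00168). Gspt2, a translation termination factor, had 7.29 to 7.95 on slides 1 and 4 and 4.70 to 4.95 on slide 5 (adjusted p = 0.00171), and Enpp6, a choline phosphodiesterase, 7.86 to 8.29 against 4.60 to 5.35 (adjusted p = 0.00229). Fosb, an immediate early factor, had 7.19 to 8.36 on slide 1 and 4.82 to 5.37 on the others (adjusted p = 0.032), and Cyp7b1, an oxysterol hydroxylase, 4.96 to 5.37 on slide 5 and 6.46 to 8.07 elsewhere (adjusted p = 0.032). Slides held different tumours, so slide and tumour cannot be told apart.

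Between the 2 ctrl slides limma called 0 of 9807 genes (0%), with 752 at an unadjusted p under 0.05 (7.67%). Mitf had the lowest p, with 1.73 ± 0.31 (log2, SE) more signal on slide 6 than on slide 7 (n = 3 and 2, limma adjusted p = 0.644). Car9, by 1.87 ± 0.36, and Kif3a, by 1.59 ± 0.30, had the same adjusted p. In simulated NT data a shift of 1 on the log2 scale on 1 slide was recovered in 0% of genes, one of 2 in 82% and one of 4 in 97.5%, and in simulated ctrl data in 0%, 50% and 94%.

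For ctrl the deposited bead errors give the precision of reading the beads, which leaves out amplification, labelling and hybridisation. With a median of 40 beads per probe, the median bead standard error was 0.0691 on the log2 scale and the median SD over tumours, without background correction, 0.244, a median ratio of 3.45. The ratio was above 2 for 82.95% of genes.

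A single tumour made up over 50% of the squared deviations in 181 of the 482 most variable NT genes (37.6%), against 25.2% of all NT genes, and in 279 of the 490 most variable ctrl genes (56.9%), against 53.4% of all. In NT that tumour was most often replicate 6 (45 genes), replicate 5 (42) and replicate 4 (33), and it was never replicate 2. In ctrl it was replicate 4 in 78, replicate 5 in 77, replicate 3 in 63, replicate 2 in 35 and replicate 1 in 26. The same counts by tumour were not made over all genes, so they do not show whether a tumour weighed more among the variable genes.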

How the data were processed

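The authors deposited 2 tables of mean bead signals per probe, raw intensities in which the values show no background correction and no normalization. Per the file headers, each signal has a detection p-value beside it, and the ctrl table also holds a standard error of the bead signal and a count of beads per probe. Another table holds the authors' processed values on a log2 scale, whose method is not given in the sources used here and which served as an alternative. Per the labels' protocols, 100 ng of RNA was amplified once and labelled with biotin. Array depth in the sense of sequencing does not apply, and the number of arrays limits the precision.

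Each set of untreated arrays was background-corrected and quantile-normalized on its own with neqc (offset 16) of limma 3.58.1 in R 4.3.3. Rows of 4 probes with exchanged or mistyped cells in the first table and 17 probes found only in the second were left out, which left 45260. Of these, 34871 had 1 gene symbol in the platform annotation, 18 several and 10371 none, and only the first were named. Each gene stands by its brightest probe over the 13 arrays. Gene means and SDs were ranked within each set. The 28 gene lists, the untreated tumours as a subject and the rules were chosen with earlier results of these data known. Named genes were the 15 brightest and 20 most variable of each set, up to 30 most variable in both, the first 2, the brightest and the 3 widest members of each list, the 5 with the lowest p between slides in each set, the 5 steadiest bright genes and the 3 leading each group of correlated genes. Tyrp1, Mlana, Hbb-bs, Hbb-bt, Gbp3 and Igtp lie outside this rule and were chosen after their values were seen. Groups came from average linkage on 1 minus Pearson r, with a limit of 0.5. Slides were tested in limma (lmFit, then eBayes; two-sided; p adjusted by Benjamini-Hochberg) after a check on simulated data with 200 shifted genes. Alternatives were neqc over the whole deposited table, no background correction, median centring, the authors' values, other detection filters, the mean over probes, other measures of spread and leaving out each tumour.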

Additional observations from a re-analysis of the deposited data

Results flagged for a closer look

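For each named gene and list, the gap between the most extreme tumour and its nearest neighbour was divided by the range of the set, and ratios above 0.526 in NT (8 tumours) or 0.71 in ctrl (5 tumours) were taken up here. Chance alone gives about 5% of such ratios. Over all genes 5.695% in NT and 4.915% in ctrl passed, near that rate, so a single gene here is weak evidence, and the named genes were chosen partly for their spread.

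Of the genes named in the text, 15 of 106 in NT and 6 of 98 in ctrl passed, and of the lists 2 of 27 and 1 of 25. Many of these genes were chosen from the same values, and some may share transcripts, so the tumour they fall on is a description only. Among these flags, more of those in NT fell on replicate 6 than on any other tumour. The melanocyte differentiation list was lowest there (ratio 0.547), with Trpm1 low (0.621). Adssl1 (0.81), Gm773 (0.663), Ngfr (0.631), Prl2c2 (0.551), Prkg2 (0.531) and Prl2c3 (0.53) were high in it, and the globin genes Hbb-bs (0.659), Hba-a1 (0.554) and Hbb-bt (0.529) were low. The same array detected the most probes of the set, 16312, and the part of this in the values was not tested.

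NT replicate 7 was high for the adipocyte list (0.563), Adipoq (0.701) and Car3 (0.602). Irgm1 was low in NT replicate 8 (0.601), Sparc in NT replicate 5 (0.631) and Tyrp1 in NT replicate 4 (0.535).

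In ctrl, replicate 5 was high for Vmn1r123 (0.868), Rhox5 (0.824), Cxcl9 (0.793) and Pdlim2 (0.713), and low for Rps29 (0.901). Ctrl replicate 3 was low for H2-Aa (0.815) and for the amino acid and ER stress list (0.736).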

How the results depend on the processing

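The 5 genes called between NT slides by limma became 1692 with median centring in place of quantile normalization, a setting under which slide 1 lay lower than slide 4 by a median of 0.62 over genes (slide 1 minus slide 4, -0.62) and than slide 5 by 0.55 (-0.55). They became 3 with the authors' values and 0 among genes detected on every array, against 1533 at an unadjusted p under 0.05 in the main setting. Without 1 tumour the NT count was 3 to 63, the highest without replicate 1, and without replicates 5, 6 and 7 it was 20, 17 and 12. In ctrl it was 0 to 2, with 2 only without replicate 4. The 202 shared variable genes became 110, of 357 in each list, among genes detected on every array, and lay between 140 and 210 under all other settings run. The genes changed too: 47 of the 110 were among the 202, 113 of 175 without background correction and 93 of 140 with the median absolute deviation. Of lists with an SD over 1, the 6 in NT became 2 without background correction and 1 with detection on every array, and the 5 in ctrl became 1 and 2. The 100 brightest shared 73 to 79 genes under all settings run. Of the 74 shared in the main setting, only 52 were still shared with the mean over probes, and 72 to 74 under the others. The bead error ratio was 3.15 to 3.47 without 1 tumour. No paired analysis was possible because the sets were set side by side only in ranks and spreads over a whole set, with no test between them, and their shared replicate numbers name samples of different tables.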
